A study of Homo sapiens with 6 samples.

Results

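The nuclear genes for subunits of oxidative phosphorylation were examined in KMS27, an established human line of malignant plasma cells, with and without overexpression of HA-TAZ. The genes were chosen by symbol: the NDUFA, NDUFB, NDUFC, NDUFS and NDUFV genes of complex I, SDHA to SDHD of complex II, 8 UQCR genes of complex III, 11 COX genes of complex IV and 15 ATP5 genes of complex V. The rule found 93 Ensembl gene IDs of 63677 in the table, which carry 75 symbols: 37, 4, 8, 11 and 15 in complexes I to V. NDUFA4 is counted with complex I by its symbol, although it is known as a subunit of complex IV. No measured value entered the rule. Per the labels, 3 libraries came from cells treated as HA-TAZ and 3 from wild type cells. The control columns of the table carry the name scr, which is in no label, and were taken as wild type by elimination, so whether these cells were untreated or carried a control construct is not given in the sources used here. HA is a peptide tag, and TAZ, the product of WWTR1, is a transcriptional coactivator of the Hippo pathway that acts mainly through TEAD factors. The labels name no promoter, clone or vector for the overexpression, and nothing says that the 3 libraries of a group came from separate cultures, so the p-values measure the spread between these libraries, which may be technical.

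Oxidative phosphorylation takes electrons from NADH at complex I and from succinate at complex II, passes them through complex III and cytochrome c to oxygen at complex IV, and uses the proton gradient built on the way to make ATP at complex V. Most subunits are encoded in the nucleus, and a smaller set that sits in the membrane core is encoded in mitochondrial DNA. Nuclear respiratory factor 1 (NRF1), the ETS family factor GABP and YY1 are known regulators of many of the nuclear genes.

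The overexpressed gene checks the labels: TPM of WWTR1 was 293, 306 and 293 in the HA-TAZ libraries 1, 2 and 3, against 2.69, 2.22 and 1.69 in the control libraries, called a, b and c here. Values below follow this order. TPM is a share of a library corrected for transcript length, so the depth of a single library was unknown. The libraries differed in composition: RN7SL1 and RN7SL2, abundant small cytoplasmic RNAs, took 14.1 to 15.6% of TPM in the HA-TAZ libraries and 9.27 to 12.5% in the control libraries, and 20534 to 21395 genes reached 1 TPM in the former against 23120 to 23807 in the latter. Each library was therefore divided by a median-of-ratios factor (scaled TPM), which moved the median log2 fold change of all tested genes from -0.27 to 0.0027. Every direction given for scaled TPM is relative to that median gene. The 8 plasma cell markers summed to 550 to 599 TPM as deposited in HA-TAZ and to 653 to 743 TPM in control libraries. In scaled TPM 1 of them was called higher (SLAMF7) and 1 lower (CD38), with a median log2 fold change of -0.00062. Markers of T cells, myeloid and stromal cells summed to at most 2.55, 4.73 and 4.89 TPM in any library, with CD3D, CD2 and COL3A1 at or near 0, and erythroid markers to 8.74 to 15.1 TPM in HA-TAZ and 8.34 to 21.2 TPM in control libraries.

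Promoter sequences are shown for 6 subunits that rose, because the 250 bases before their start hold the letters of NRF1, ETS or TEAD. They are the 250 bases before the RefSeq start, build GRCh38.p14, written 5′ to 3′ along the gene, at chr1:17054033-17054282 (minus strand) for SDHB, chr11:47578824-47579073 (plus strand) for NDUFS3, chr12:120437863-120438112 (plus strand) for COX6A1, chr22:42090773-42091022 (minus strand) for NDUFA6, chr3:48609647-48609896 (minus strand) for UQCRC1 and chr15:74938074-74938323 (minus strand) for COX5A. Capitals mark GCATGCGC (NRF1), CCGGAAG (ETS) and GGAATG (TEAD) on either strand.
SDHB: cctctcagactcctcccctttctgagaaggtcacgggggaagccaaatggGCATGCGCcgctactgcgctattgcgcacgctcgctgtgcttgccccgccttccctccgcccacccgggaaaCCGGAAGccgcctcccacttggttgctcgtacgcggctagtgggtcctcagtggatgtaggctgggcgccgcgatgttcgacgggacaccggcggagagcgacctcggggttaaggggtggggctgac
NDUFS3: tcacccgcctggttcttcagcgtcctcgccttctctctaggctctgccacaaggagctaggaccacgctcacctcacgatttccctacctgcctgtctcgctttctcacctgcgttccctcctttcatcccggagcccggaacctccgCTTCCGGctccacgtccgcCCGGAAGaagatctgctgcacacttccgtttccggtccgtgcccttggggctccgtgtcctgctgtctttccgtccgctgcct
COX6A1: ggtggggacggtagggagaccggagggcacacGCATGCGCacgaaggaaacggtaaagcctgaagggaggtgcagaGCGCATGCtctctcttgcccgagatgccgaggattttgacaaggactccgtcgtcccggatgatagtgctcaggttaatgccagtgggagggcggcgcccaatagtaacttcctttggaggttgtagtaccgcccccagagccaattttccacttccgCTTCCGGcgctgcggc
NDUFA6: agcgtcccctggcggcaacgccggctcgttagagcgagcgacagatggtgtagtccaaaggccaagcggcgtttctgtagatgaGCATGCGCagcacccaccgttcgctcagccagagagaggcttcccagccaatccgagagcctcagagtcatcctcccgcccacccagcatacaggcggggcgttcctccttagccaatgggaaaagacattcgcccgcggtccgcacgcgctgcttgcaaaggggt
UQCRC1: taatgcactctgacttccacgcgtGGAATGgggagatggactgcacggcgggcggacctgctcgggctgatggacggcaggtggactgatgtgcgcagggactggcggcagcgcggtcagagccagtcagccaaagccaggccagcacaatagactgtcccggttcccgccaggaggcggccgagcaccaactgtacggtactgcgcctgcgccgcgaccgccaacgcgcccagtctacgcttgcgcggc
COX5A: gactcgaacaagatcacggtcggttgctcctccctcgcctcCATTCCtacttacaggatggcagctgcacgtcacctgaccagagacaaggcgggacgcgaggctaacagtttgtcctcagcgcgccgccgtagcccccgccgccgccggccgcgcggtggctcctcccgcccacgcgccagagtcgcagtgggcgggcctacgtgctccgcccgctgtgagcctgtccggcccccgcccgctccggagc
RefSeq windows of 300 bases, from 250 before to 50 after a start, were matched for 62 of the 75 members, with 75 windows in all. The NRF1 letters stood in 20.0% of these windows and in 3.74% of the windows of protein-coding genes. The ETS letters stood in 28.0% against 12.8%, and the YY1 letters AAGATGGC in 17.3% against 3.53%. The TEAD letters stood in 9.33% against 12.2%, and the E-box CACGTG in 9.33% against 8.34%. Over all 35116 windows the shares were 3.05, 10.3, 2.89, 14.03 and 7.26% in the same order. Both strands were searched, and no motif is contained in another. Of the 13 members that rose and have a window, 3 held the NRF1 letters, 4 ETS, 5 YY1, 2 TEAD and 1 the E-box. Over all 62 members with a window the counts were 14, 20, 12, 6 and 7 in the same order. SDHB, NDUFA6 and UQCRC1 also held the YY1 letters, not wholly within the 250 bases shown and so not marked there. COX4I1 held the ETS letters, NDUFB8 the YY1 letters and ATP5F1 the YY1 letters and the E-box, and their windows are not shown. NDUFA12, NDUFB10, NDUFB6 and NDUFS8 rose and held none of these motifs. A match describes letters only, and binding was not measured here.

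Scaled TPM of the subunits was higher in HA-TAZ cells by a small amount across all 5 complexes. Of the 75 members, 16 rose and 0 fell in limma's test with Benjamini-Hochberg adjustment over 22651 genes, which is 21.3%, beside 6.15% of all tested genes called higher and 2.34% called lower. At an unadjusted p under 0.05, 60 were higher and 0 lower, beside 19% and 12% of all genes. Over the members the log2 fold change had a median of 0.31, with a range from -0.026 to 0.66, and 74 of 75 were positive. In 61 members the 3 HA-TAZ libraries lay above the 3 control libraries without overlap, beside 22.8% of all genes above and 15.8% below, and no member lay below. With factors computed only over the tested genes, 11 members rose, beside 4.67% of all genes, and with any 1 library left out the count was between 0 and 7.

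**Figure D1:**
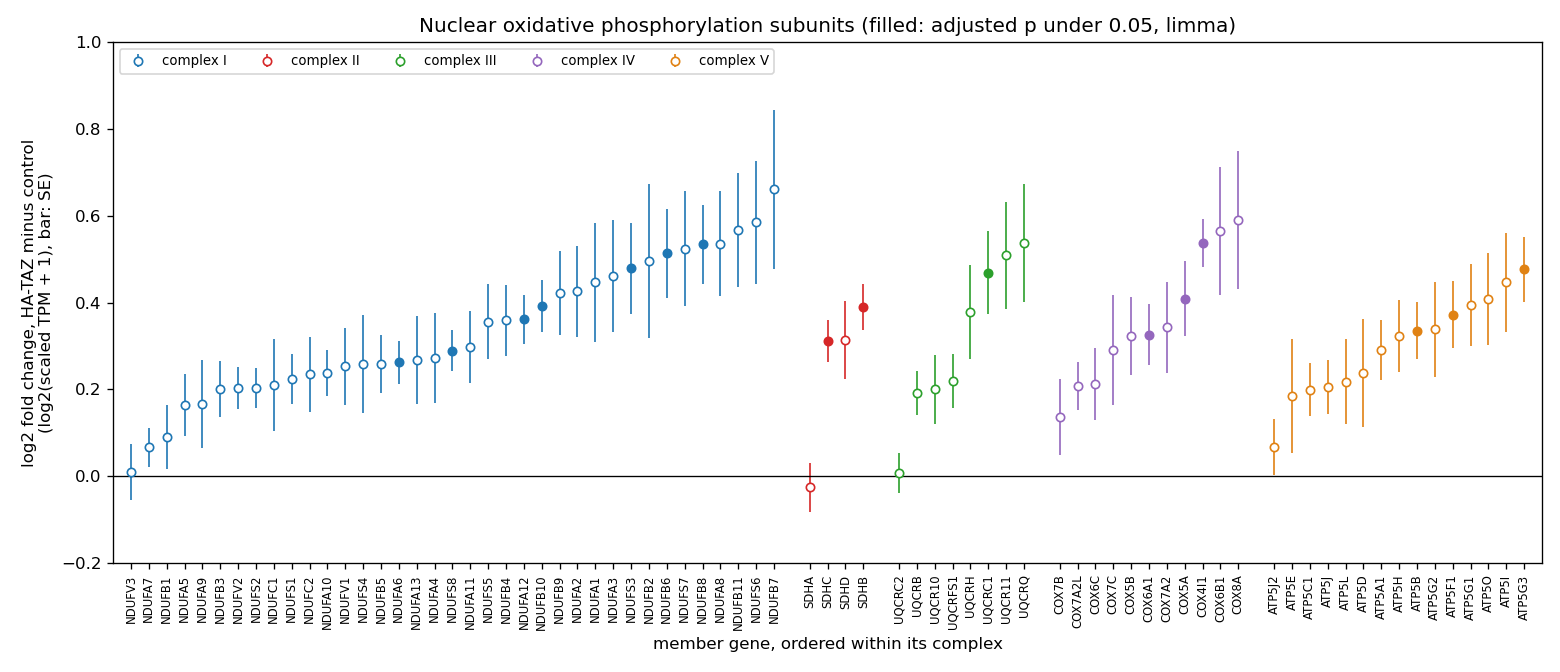
Log2 fold change of scaled TPM (y axis, bars are the SE) of each of the 75 members, grouped and coloured by complex, with filled points for an adjusted p under 0.05. Of the points, 74 lie above 0 and 16 are filled, and SDHA lies at -0.026.

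The direction rests on the scaling. As deposited, the members took 0.889, 0.930 and 0.872% of TPM in the HA-TAZ libraries and 0.914, 0.918 and 0.920% in the control libraries. Their median log2 fold change was then -0.017, with 34 positive and 41 negative, while that of all genes was -0.27. No member was called higher and 1, UQCRC2, was called lower, beside 1.15% and 13.5% of all genes. Without overlap, 11 members lay above and 12 below the controls, beside 4.41% and 43.6% of all genes. The members' median stood above that of all genes by 0.31 in scaled TPM, by 0.25 in TPM as deposited and by 0.21 when only protein-coding genes were kept and scaled. In that last fit 34 of 74 members rose and 0 fell, beside 13.7% of protein-coding genes called higher and 10.2% called lower. The members are abundant, with a median of 88.5 TPM against 6.40 TPM over the tested genes. Among genes of at least 5 TPM, 41 of 75 members rose, beside 15.8% of 12613 genes.

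**Figure D2:**
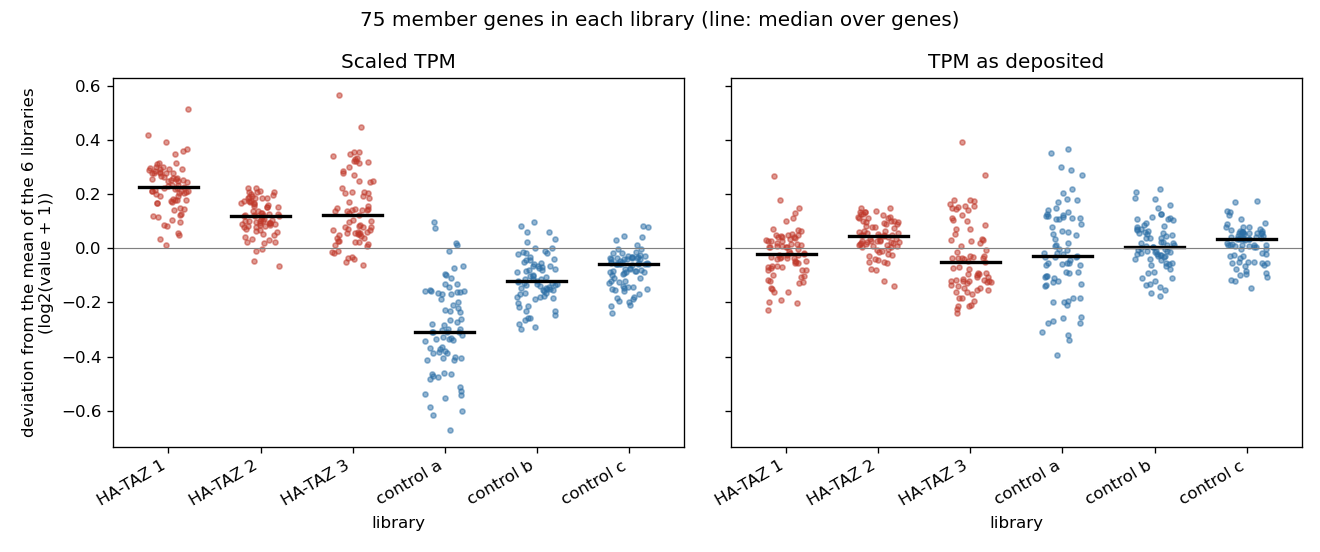
Deviation of each of the 75 members from its mean over the 6 libraries (y axis, log2(value + 1)) in scaled TPM (left) and TPM as deposited (right), 1 column of points per library with the median as a line. In scaled TPM the medians are 0.23, 0.12 and 0.12 in HA-TAZ and -0.31, -0.12 and -0.060 in control libraries, and as deposited all 6 lie between -0.052 and 0.047.

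Control a stood apart from the other controls. It was the lowest library in 63 of 75 members in scaled TPM, and its share of TPM from protein-coding genes was 54.5%, against 46.9 to 49.7% in the other controls and 42.2 to 47.4% in HA-TAZ libraries. Without it the median log2 fold change was 0.26, all 75 members were positive and 7 rose, beside 1.65% of all genes called higher in that fit. On the other side, HA-TAZ 1 was the highest library in 52 of 75 members in scaled TPM. HA-TAZ 1 had the smallest scaling factor, 0.849, and control a the largest, 1.23. As deposited, control a was the lowest library in 25 members and the highest in 20. HA-TAZ 1 was then the highest in 4 and the lowest in 13. The part of library composition in these values was not tested.

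Complex I, the entry point for NADH, had 7 of 37 members that rose, with a median log2 fold change of 0.29. Its summed scaled TPM was 3374, 3134 and 3208 in HA-TAZ and 2349, 2704 and 2750 in control libraries, a ratio of 1.24, against 0.989 as deposited. By family, the median was 0.42 over the 11 NDUFB genes, which encode accessory subunits largely of the membrane arm, 0.27 over the 13 NDUFA genes and 0.26 over the 11 NDUFS and NDUFV genes, which include the subunits that carry flavin and iron-sulfur clusters. NDUFB8, an accessory subunit often used as a marker of assembled complex I, was at 140, 135 and 142 scaled TPM in HA-TAZ and at 83.4, 103 and 102 in control libraries. It rose by 0.53 ± 0.09 on the log2 scale (SE, adjusted p = 0.034, limma). The groups did not overlap in scaled TPM or as deposited.

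NDUFB10 was at 89.6, 80.1 and 89.3 against 63.9, 67.9 and 64.8 scaled TPM, a rise of 0.39 ± 0.06 (SE, adjusted p = 0.028, limma). NDUFB6 was at 29.02, 23.6 and 25.2 against 15.9, 18.8 and 18.7, a rise of 0.51 ± 0.10 (SE, adjusted p = 0.043, limma). Both are accessory subunits, and all HA-TAZ libraries lay above all controls in each.

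NDUFS3 and NDUFS8 belong to the core of the arm that reaches into the matrix, and NDUFS8 holds iron-sulfur clusters. NDUFS3 was at 82.7, 78.9 and 78.3 against 48.3, 62.1 and 61.9 scaled TPM, with a log2 fold change of 0.48 (adjusted p = 0.049, limma). NDUFS8 was at 115, 105 and 110 against 88.9, 89.1 and 91.2, with a log2 fold change of 0.29 (adjusted p = 0.033, limma). NDUFA12, an accessory subunit, was at 60.1, 59.0 and 54.5 against 45.2, 46.3 and 42.9, with a log2 fold change of 0.36 (adjusted p = 0.030, limma). NDUFA6, an accessory subunit, was split evenly over 3 gene IDs, and 1 of them was at 17.2, 17.2 and 17.7 against 14.04, 14.7 and 14.2 (0.26, adjusted p = 0.039, limma).

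The largest fold change of all members was that of NDUFB7, at 112, 85.1 and 100 against 48.7, 63.7 and 76.4 scaled TPM. Its log2 fold change of 0.66 ± 0.18 (SE) did not pass the threshold (adjusted p = 0.076, limma), and its controls spread from 48.7 to 76.4. NDUFS6 had 0.58 (adjusted p = 0.059, limma). NDUFA4, grouped here by its symbol, had 0.27 (adjusted p = 0.14, limma) at 45.7 to 53.7 TPM as deposited. NDUFA3 was spread over 10 gene IDs, which summed to 126 TPM, and its log2 fold change was 0.46 for the ID with the highest level (adjusted p = 0.077, limma). At the other end were NDUFV3 at 0.0091 (adjusted p = 0.94, limma) and NDUFA7 at 0.067 (adjusted p = 0.36, limma). Both had overlapping groups in scaled TPM, and as deposited both lay below the controls without overlap. NDUFC2 was the most abundant member of the complex at 217 to 251 TPM as deposited.

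Complex II, succinate dehydrogenase, is the enzyme shared with the citric acid cycle and is encoded wholly in the nucleus. SDHB, its iron-sulfur subunit, was at 69.7, 67.2 and 68.3 scaled TPM in HA-TAZ and at 48.9, 53.7 and 53.5 in control libraries. It rose by 0.39 ± 0.05 (SE, adjusted p = 0.022, limma), and the groups did not overlap. SDHC, a membrane anchor, was at 108, 112 and 102 against 87.0, 84.9 and 87.1, a rise of 0.31 ± 0.05 (SE, adjusted p = 0.028, limma). SDHD, the other anchor, had the same log2 fold change of 0.31 with a larger SE of 0.09 and did not pass (adjusted p = 0.082, limma). SDHA, the flavoprotein that oxidises succinate, was at 83.1, 77.1 and 77.1 against 84.0, 81.1 and 76.5, with overlapping groups and a log2 fold change of -0.026 (adjusted p = 0.79, limma). Summed over the complex, scaled TPM was 343, 328 and 317 against 274, 280 and 282, a ratio of 1.18.

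Complex III passes electrons from ubiquinol to cytochrome c, and 1 of its 8 members rose. UQCRC1, a core protein, was at 29.9, 26.1 and 30.9 scaled TPM against 19.3, 19.7 and 23.0, a rise of 0.47 ± 0.10 (SE, adjusted p = 0.044, limma). All HA-TAZ libraries lay above all controls, also as deposited. UQCRC2, the other core protein, was at 105, 97.3 and 103 against 102, 100 and 102, a log2 fold change of 0.0068 (adjusted p = 0.94, limma). UQCRQ at 0.54 and UQCR11 at 0.51, both small subunits, had adjusted p of 0.063 and 0.058 (limma). The other gene ID of UQCR11, at a mean of 24.3 TPM, had 0.24 with overlapping groups (adjusted p = 0.20, limma). TPM summed over both IDs gave 0.41. UQCRB, the most abundant member of the complex at 246 to 291 TPM as deposited, had 0.19 (adjusted p = 0.069, limma). The ratio of summed scaled TPM was 1.22.

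Complex IV, cytochrome c oxidase, hands electrons to oxygen, and 3 of its 11 members rose. COX4I1, the largest nuclear subunit and the ubiquitous form of subunit 4, was at 217, 209 and 228 scaled TPM in HA-TAZ and at 143, 151 and 156 in control libraries. It rose by 0.54 ± 0.06 (SE, adjusted p = 0.011, limma), the smallest adjusted p among the members, and its groups did not overlap as deposited either, at 184, 200 and 203 against 176, 167 and 168 TPM. COX5A was at 172, 165 and 169 against 112, 132 and 138 scaled TPM, a log2 fold change of 0.41 (adjusted p = 0.046, limma). COX6A1 was at 478, 448 and 418 against 341, 355 and 375, a log2 fold change of 0.33 (adjusted p = 0.047, limma). COX8A at 0.59 and COX6B1 at 0.56 were larger but did not pass (adjusted p = 0.072 and 0.068, limma), with controls from 96.0 to 143 and from 92.7 to 138 scaled TPM. The smallest were COX7B at 0.14 and COX7A2L, a factor of supercomplexes, at 0.21, and COX7C, at 406 to 500 TPM as deposited, had 0.29 with overlapping groups. The ratio of summed scaled TPM was 1.27.

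Complex V, ATP synthase, had 3 of 15 members that rose. ATP5B, the catalytic beta subunit, was at 383, 356 and 360 scaled TPM against 312, 274 and 285, a rise of 0.34 ± 0.07 (SE, adjusted p = 0.040, limma). As deposited its groups overlapped, at 325, 341 and 321 against 383, 303 and 307 TPM, with control a the highest library. Its transcripts typed as protein-coding were at 308, 315 and 303 against 285, 276 and 285 TPM as deposited. Those typed as processed were at 16.8, 25.2 and 17.6 against 96.7, 26.3 and 21.8 TPM. ATP5G3, 1 of 3 genes for the same membrane ring subunit, was at 79.0, 75.8 and 81.4 against 50.7, 58.4 and 60.1, a rise of 0.48 ± 0.08 (SE, adjusted p = 0.030, limma). ATP5F1, the b subunit of the stalk, was at 115, 107 and 94.7 against 79.1, 83.6 and 80.2, a log2 fold change of 0.37 (adjusted p = 0.045, limma). ATP5I had 0.45 (adjusted p = 0.064, limma) and ATP5E, the epsilon subunit, 0.18 (adjusted p = 0.39, limma). ATP5J2, the most abundant member of all at 583 to 833 TPM as deposited, had 0.067 (adjusted p = 0.52, limma). Its groups overlapped in scaled TPM but not as deposited, at 608, 656 and 583 against 833, 737 and 663 TPM. Its untyped transcript ENST00000544611.1 was at 193, 230 and 186 TPM against 413, 276 and 232 TPM. The ratio of summed scaled TPM of the complex was 1.19.

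The members' TPM was split by the transcript types of GENCODE 29, since libraries of total RNA also hold incompletely spliced RNA. Protein-coding transcripts held 77.8, 77.03 and 77.6% of the members' TPM in HA-TAZ and 72.5, 75.3 and 75.9% in control libraries. Retained-intron transcripts held 4.48 to 4.63% against 5.17 to 5.79%. Neither pair of ranges overlapped. The other protein-coding genes showed the same order, at 77.9 to 78.7% against 75.8 to 76.2% for coding and 8.79 to 9.20% against 10.1 to 10.3% for retained-intron transcripts. Untyped transcripts held 7.96 to 8.29% of the members' TPM in HA-TAZ and 8.49 to 10.3% in control libraries. In the other protein-coding genes they held 2.30 to 2.35% and 2.21 to 2.28%. Gene by gene, the coding share was higher in HA-TAZ without overlap in 16 of 61 members (26.2%) and in 23.8% of other protein-coding genes, so the members lay near the background. The part of transcript types in the members' fold changes was not tested.

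**Figure D3:**
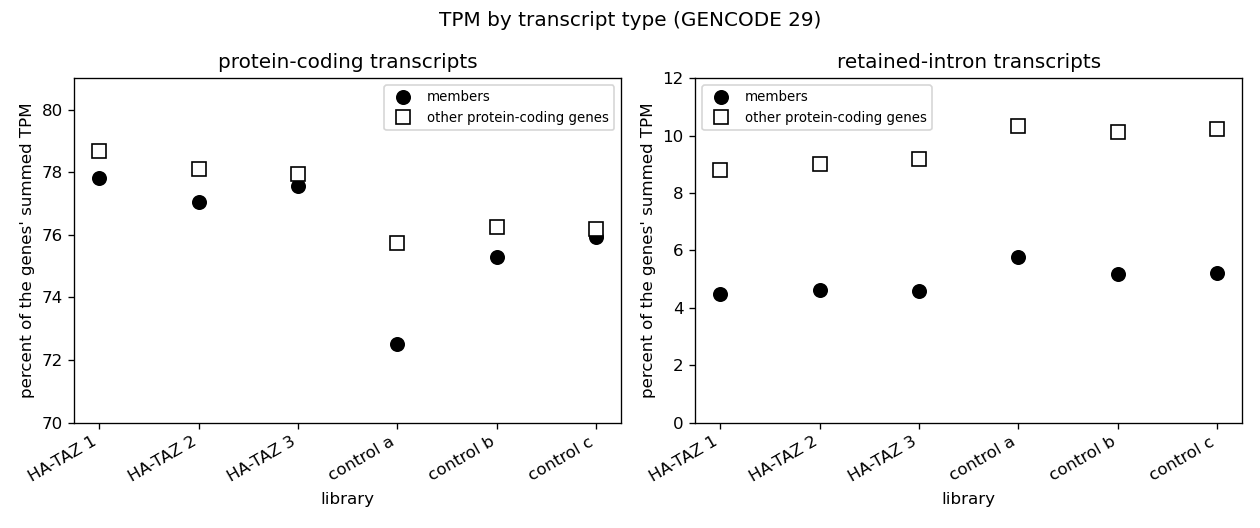
Percent of summed TPM (y axis; the left axis starts at 70) in protein-coding (left) and retained-intron transcripts (right) for the members (filled circles) and the other protein-coding genes (open squares) in each library. The members' coding share is 77.03 to 77.8% in HA-TAZ and 72.5 to 75.9% in control libraries.

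With only transcripts typed as protein-coding summed per gene, an alternative chosen after the data were seen, 58 of 74 members rose and 0 fell, beside 34.2% of genes called higher and 3.52% called lower. The median log2 fold change was then 0.34 for the members and 0.16 for all genes. With only retained-intron transcripts, 0 of 45 members were called by limma, beside 0.704% of genes called higher and 1.06% called lower. At an unadjusted p under 0.05, 7 were higher and 3 lower, beside 7.47% and 16.1% of genes, and the median was 0.049, against -0.082 over all genes. Of the 14 members with overlapping scaled TPM over all transcripts, 5 rose in their coding transcripts, namely NDUFA5, NDUFA9, SDHA, UQCRC2 and ATP5L. That share is near the 34.2% of all genes called higher in this fit. NDUFA9 and ATP5L passed narrowly (adjusted p = 0.048 and 0.049, limma). The other 9 of the 14, NDUFV3, NDUFA7 and ATP5J2 among them, did not pass, with log2 fold changes from 0.041 to 0.35. NDUFA6, called over all transcripts, did not pass over its coding transcripts (0.15, adjusted p = 0.12, limma). SDHA and UQCRC2 are given in full, chosen after their values were seen. SDHA's coding transcripts were at 34.7, 32.7 and 32.3 TPM against 30.5, 30.5 and 30.8 TPM, while its retained-intron transcripts, 52.4% of the gene's TPM, were at 30.8, 37.2 and 32.8 against 58.3, 50.3 and 46.7 TPM. In scaled TPM its coding transcripts rose by 0.44 (adjusted p = 0.0071, limma), and those with a retained intron had -0.28 (adjusted p = 0.10, limma). UQCRC2's coding transcripts rose by 0.28 (adjusted p = 0.010, limma). Of the 74 members 2 were negative over their coding transcripts. NDUFA13 had -0.22 (adjusted p = 0.099, limma) over coding transcripts that were 4.13% of its TPM, and ATP5F1 had -0.075 (adjusted p = 0.81, limma) over 22.2% of its TPM. The most abundant transcript of ATP5F1, ENST00000369721.4, is typed as processed.

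Single transcripts gave few calls. Of 764 member transcripts 445 were tested and 1 was called, beside 0.569% of all transcripts, and 161 had an unadjusted p under 0.05 (143 higher, 18 lower), which is 36.2%, beside 24.3% of all tested transcripts. The call was ENST00000589880.1 of UQCR11, at 1.73, 2.35 and 1.49 TPM in HA-TAZ against 0.201, 0.516 and 0.301 TPM. The authors' deposited table, a sleuth test that uses estimated counts, had statistics for 576 member transcripts and a q-value under 0.05 for 61. Of these, 58 in the authors' deposited table, 10.1% of the 576, had a positive effect, beside 4.08% of all transcripts, and 3 had a negative one, beside 1.60%. By type, 51 of the 58 in the authors' deposited table were protein-coding and 0 had a retained intron. The smallest q-values among members in the authors' deposited table were 4.3e-09 for ENST00000262030.3 of ATP5B, with an effect of 0.335 in natural log, and 2.0e-07 for ENST00000375499.3 of SDHB, with 0.434. ENST00000264932.6, the main coding transcript of SDHA, had 0.314 in the authors' deposited table, and its retained-intron transcript ENST00000505555.1 had -0.290.

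Pseudogenes named for members were examined because they can share reads with their parents. Their summed TPM as deposited was 77.6 to 96.2 in HA-TAZ and 111 to 154 in control libraries. This was 0.873 to 1.09% and 1.20 to 1.68% of the members' own TPM. The median log2 fold change of all genes as deposited was -0.27. SDHAP1 was at 18.6, 17.2 and 17.03 TPM against 29.5, 23.0 and 23.7 TPM as deposited, and in scaled TPM its groups overlapped, with a log2 fold change of -0.18 (adjusted p = 0.25, limma). The reads of SDHAP1 and SDHA may have been divided between them, so both values are uncertain. Of 21 tested pseudogenes 1 rose and 1 fell, beside 6.15% and 2.34% of all genes, with a median of -0.13.

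Genes around the members were taken from 9 lists. The 13 subunits encoded in mitochondrial DNA had 0 calls in either direction by limma and 0 at an unadjusted p under 0.05, with a median log2 fold change of -0.083. That median was -0.42 as deposited, where all 13 were negative, and -0.17 with protein-coding genes only. MT-CO1, a catalytic subunit of complex IV, was at 13270, 13198 and 10891 scaled TPM against 11383, 10511 and 9589, and MT-ND1 of complex I at 2743, 2766 and 2370 against 3491, 2700 and 2259. The groups overlapped in both genes. Over the 9 lists, 23 of 115 tested genes rose and 0 fell, beside 6.15% and 2.34% of all genes. As deposited 2 of the 115 rose and 9 fell, beside 1.15% and 13.5% of all genes. The share of 6.15% also belongs beside the counts of single lists below, some of which hold few genes.

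Among assembly factors of complex IV, 9 of 25 rose, with a list median of 0.23. SCO2, a copper chaperone, was at 8.94, 8.20 and 8.87 against 4.36, 4.73 and 5.62 scaled TPM (0.72, adjusted p = 0.023, limma). SURF1 was at 15.2, 14.3 and 14.5 against 9.59, 9.52 and 10.4 (0.53, adjusted p = 0.015, limma). HIGD1A at 0.42 and LRPPRC, which stabilises mitochondrial messenger RNA, at 0.28 also rose.

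Of the assembly factors of complex I, 2 of 15 rose (NDUFAF4 and NDUFAF3), of those of complexes II and III 0 of 7, with 3 at an unadjusted p under 0.05, and of those of complex V 1 of 3 (TMEM70). Of the other nuclear subunits and carriers, 2 of 10 rose, namely cytochrome c (CYCS) at 0.31 and cytochrome c1 (CYC1) at 0.44. In the citric acid cycle and pyruvate dehydrogenase 3 of 18 rose (IDH2, IDH3B and MDH2), with a list median of 0.15. Among regulators of mitochondrial expression 3 of 16 rose, namely ESRRA, a nuclear receptor of energy metabolism, at 0.54, GABPB1 at 0.29 and TFAM, which packages mitochondrial DNA, at 0.20. Among carriers of adenine nucleotides and phosphate and outer membrane channels 3 of 8 rose, namely SLC25A3, SLC25A5 and VDAC2, with a list median of 0.26.

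**Figure D4:**
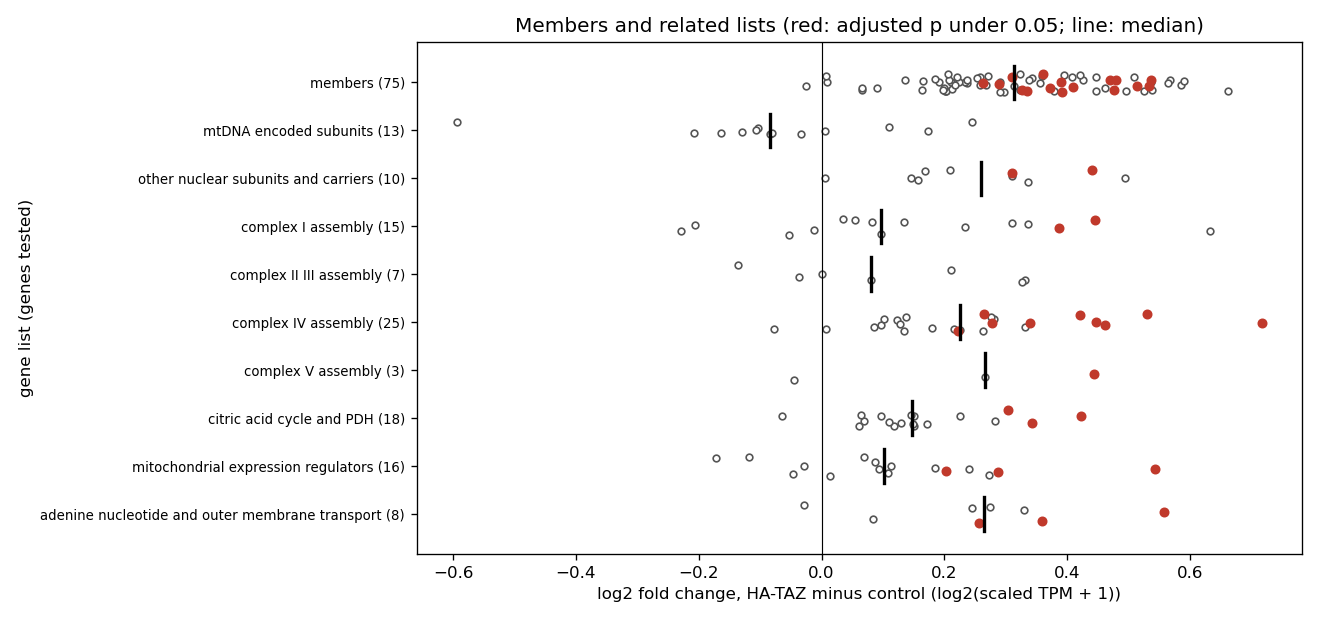
Log2 fold change of scaled TPM (x axis) of the members and of the tested genes of 9 related lists (rows, number tested in brackets), with red points for an adjusted p under 0.05 and a line at each median. The members' median is 0.31, and that of the subunits encoded in mitochondrial DNA is -0.083.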

How the data were processed

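Total RNA depleted of ribosomal RNA was sequenced from KMS27 cells, 3 libraries per group, per the labels' protocols. The authors deposited TPM per transcript, made with kallisto 0.46.0 on build GRCh37, and a sleuth 0.30.0 table with p-values, q-values and natural log effects, per the submitters' processing notes and the file headers. The 3 columns that do not name TAZ were taken as wild type by elimination and called control a, b and c.

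TPM was summed per Ensembl gene ID. Scaled TPM is TPM over a median-of-ratios factor from the 33614 genes above 0 in all libraries: 0.849, 0.959 and 0.893 for HA-TAZ 1, 2 and 3, and 1.23, 1.10 and 1.08 for control a, b and c. Factors over the tested genes only were an alternative added after seeing the data. The 22651 genes whose mean TPM reached 1 entered limma 3.58.1 in R 4.3.3, fitted to log2(scaled TPM + 1) with trend; tests were two-sided, and p-values were adjusted by Benjamini-Hochberg and called at 0.05. This scale understates changes of low genes. The fit was also run on simulated data with independent noise for each gene, which cannot test the scaling or shifts shared by a library. Transcripts used the gene factors. Of the 93 IDs 91 were tested. NDUFA7 and SDHD each have a second ID below the filter, at 0.862 and 0.354 TPM. For the 9 symbols with several IDs, the ID with the highest level stands for the symbol. In the means of the authors' deposited table, tested members had 195 to 30722 implied estimated counts, with a median of 2973.

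The members and lists were chosen with earlier results of these data known. The rule for named genes took those called, the 2 largest and 2 smallest fold changes and the highest and lowest level in each complex, and called genes of each list. Others were named outside this rule, among them NDUFA4, NDUFA5, NDUFA9, NDUFA13, ATP5L, MT-CO1, MT-ND1 and SDHAP1. GENCODE 29 gave transcript types only, for 79.2% of member transcripts. Promoters are from RefSeq. Gene coordinates of the files' build were not used here. Whether counting used the strand is not given in the sources used here.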

Additional observations from a re-analysis of the deposited data

How the results depend on the processing

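With TPM as deposited, 1 member was called, the members' median was -0.017, 3329 genes and 0 member transcripts were called, the ratios of summed TPM were 0.989, 0.936, 0.967, 1.01 and 0.946 for complexes I to V and 0.978 over all members, and 11 genes of the related lists were called. Members called numbered 34 with protein-coding genes only, 3 without a filter on level, 41 with the filter at 5 TPM, 2 without trend, 58 with coding transcripts only and 0 with retained-intron transcripts only, where their median was 0.049. Of all genes, 697 were called without a filter and 777 without trend, against 1925, and 1652 with factors over the tested genes. Without trend, 2 of 75 members thus stood beside 777 of 22651 genes, a share no larger than that of all genes. The shares of genes called higher were 13.7% with protein-coding genes only, 15.8% with the filter at 5 TPM and 34.2% with coding transcripts only. Member transcripts called numbered 0 at a pseudocount of 0.1 and 33 with the filter at 5 TPM. The share of all transcripts called in these fits is not given here, so the 33 cannot be read against it. With 1 library left out, 0 to 7 members, 121 to 442 genes and 0 to 1 member transcripts were called, the members' median ran from 0.26 to 0.36, and the log2 fold change ran from -0.027 to 0.062 for NDUFV3, from -0.014 to 0.043 for UQCRC2 and from -0.061 to 0.0070 for SDHA. The cause of these changes was not tested.

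Over all 75 members 41 were negative as deposited, against 1 in scaled TPM. Among the 36 members that the rule for named genes picks, the following changed sign. As deposited they were ATP5E -0.14, ATP5J2 -0.27, COX6A1 -0.0086, COX7A2L -0.12, COX7B -0.19, COX7C -0.044, NDUFA6 -0.053, NDUFA7 -0.27, NDUFC2 -0.100, NDUFS8 -0.043, NDUFV3 -0.31, SDHC -0.021, SDHD -0.017, UQCRB -0.14 and UQCRC2 -0.33. With protein-coding genes only they were ATP5J2 -0.024, NDUFA7 -0.024, NDUFV3 -0.077 and UQCRC2 -0.083. With factors over the tested genes they were NDUFV3 -0.023 and UQCRC2 -0.027, and with coding transcripts only ATP5F1 -0.075 and SDHA 0.44. WWTR1 kept its direction and call in all alternatives run for it. No paired analysis was possible because the control columns cannot be tied to numbered samples. Depth per library was unknown.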
